A study of Mus musculus with 24 samples.

Results

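Actins and tropomyosins were followed as 9 genes, namely the 5 actins Acta1, Actc1, Acta2, Actb, and Actg1 and the 4 tropomyosins Tpm1, Tpm2, Tpm3, and Tpm4. They were taken by gene name from 56941 listed genes, of which 27870 had a count in at least 1 library and 13315 had enough counts to be tested. All 9 members were among the genes tested. Together they held between 1.04% and 1.82% of the TPM of a library, where TPM is the library-scaled transcript abundance after division by transcript length.

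RNA was sequenced from 2D sheets of C2C12 muscle, an established mouse myoblast line, cultured on grooved fibrin hydrogels in medium with horse serum and IGF-1. All groups, the controls included, carried the light-gated channel ChR2(H134R) fused to tdTomato, so that blue light could make the cells contract. Tissues were stimulated for 60 min each day at 1, 4, or 10 Hz, or left unstimulated as control, with 6 biological replicates in each of the 4 conditions. The tissues came from 1 engineered cell line and hold no nerve, vessel, or whole-animal input, and the labels do not say which low-input samples were ribodepleted instead of poly(A)-selected.

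Actin monomers join into filaments, and tropomyosin runs along the filament as a coiled coil. In striated muscle, Acta1 (skeletal α-actin) and Actc1 (cardiac α-actin, also used in embryonic and regenerating skeletal muscle) form the thin filaments of the sarcomere, where tropomyosin and the troponins gate the access of myosin. Actb and Actg1 encode the cytoplasmic β- and γ-actins found in all cells, and Acta2 encodes the α-actin of smooth muscle and myofibroblasts, which is also made by immature myotubes. Tpm1, Tpm2, and Tpm3 each yield a muscle and several non-muscle forms by alternative promoters and splicing, whereas Tpm4 yields cytoplasmic forms. Gene-level values therefore do not separate the muscle from the non-muscle forms of Tpm1, Tpm2, and Tpm3.

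The 5 actin genes code for nearly the same protein, and their first coding bases are shown as an example of how the genes differ. The first 60 coding bases of the canonical transcript of each gene (GRCm39, GENCODE M39) are given, with capitals where a base differs from the aligned base of Acta1.
Acta1: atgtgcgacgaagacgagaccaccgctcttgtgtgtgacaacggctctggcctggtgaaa
Actc1: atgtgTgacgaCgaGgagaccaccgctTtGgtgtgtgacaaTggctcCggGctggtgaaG
Acta2: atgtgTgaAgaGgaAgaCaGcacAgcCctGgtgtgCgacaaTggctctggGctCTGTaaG
Actb: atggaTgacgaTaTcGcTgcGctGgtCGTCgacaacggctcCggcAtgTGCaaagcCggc
Actg1: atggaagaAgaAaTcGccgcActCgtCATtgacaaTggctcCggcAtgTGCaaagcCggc
Within these bases Actc1 differed from Acta1 at 9 positions, Acta2 at 17, Actb at 17, and Actg1 at 16. Bases of Acta1 that are absent from Actb and Actg1 are not marked or counted. Their coding sequences are 1128 bases long against 1134 in Acta1, so their lines do not match that of Acta1 column by column. Over the whole coding sequence, identity ran from 81.5% (Actc1 or Acta2 with Actg1) to 88.7% (Actb with Actg1). Of all 50-base stretches, the length of the reads, Acta1 shared none with Actc1 or Acta2, and Actb shared 1.6% with Actg1. The tropomyosins shared no 50-base stretch with each other.

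In GRCm39, Acta1 lies on the minus strand of chromosome 8 (124618501 to 124623661), Actc1 on chromosome 2 (113876266 to 113884043), and Acta2 on chromosome 19 (34217737 to 34232990), both also on the minus strand. Actb lies on chromosome 5 (142888870 to 142892509) and Actg1 on chromosome 11 (120236512 to 120239617), likewise on the minus strand. Tpm1 (chromosome 9, 66929870 to 66956953) and Tpm2 (chromosome 4, 43514697 to 43524949) are on the minus strand, and Tpm3 (chromosome 3, 89979949 to 90008226) and Tpm4 (chromosome 8, 72884018 to 72906987) on the plus strand. A gene annotated on the opposite strand overlapped Acta1, Actc1, Acta2, Actg1, Tpm1, and Tpm4, and the sources used here do not state whether counting used the strand. Near-identical copies add uncertainty for some members. For Actg1, 83.9% of the 50-base stretches also occurred in transcripts of other genes, among them Gm70496 (79%) and Gm12715 (45.2%), and for Tpm3 59.3% occurred in Tpm3-rs7. The copies that were counted received few counts, between 0.277% and 0.693% of those of Actg1 (6 copies), 0.262% to 0.873% of those of Tpm3, and 2.91% to 4.6% of those of Tpm4. Gm70496 was not among the 6 copies counted for Actg1, so its part is not known. Of the 50-base stretches of Actb, 14.2% occurred in other genes, mainly Lrrc58 (9.57%) and Gm15725 (6.73%), whose counts were not examined.

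Promoters were searched because the members varied together in 2 sets, Acta1, Actc1, Tpm1, Tpm2, and Tpm3 in one and Acta2, Actb, Actg1, and Tpm4 in the other. A CArG box, the element bound by serum response factor, was searched only as an exact CCWWWWWWGG, where W is A or T. Boxes with a mismatch were not searched, so members without the exact box may still hold one. The window was the 250 bases before the RefSeq start (GRCm38.p6, both strands searched). Among the 8 members with a promoter sequence, the exact box is listed for Acta1, Actc1, and Actg1 only. It was found in 1.47% of all 32851 promoters of that length. The 120 bases before the start of these 3 genes are shown, with the CArG box and any TATAAA in capitals.
Acta1 (chr8:123894776-123894895, minus strand): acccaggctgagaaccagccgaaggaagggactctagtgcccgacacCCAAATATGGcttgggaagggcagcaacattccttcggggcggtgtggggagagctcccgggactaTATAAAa
Actc1 (chr2:114052876-114052995, minus strand): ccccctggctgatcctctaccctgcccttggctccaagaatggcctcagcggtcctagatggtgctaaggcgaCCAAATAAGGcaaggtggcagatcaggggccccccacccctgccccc
Actg1 (chr11:120348496-120348615, minus strand): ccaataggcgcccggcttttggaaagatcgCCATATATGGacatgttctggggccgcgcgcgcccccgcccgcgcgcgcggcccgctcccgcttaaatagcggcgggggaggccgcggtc
The first base of the box lay 73 bases before the start of Acta1, 47 before that of Actc1, and 90 before that of Actg1. Only Acta1 also held TATAAA, 7 bases before the start, a motif found in 12.4% of all promoters. Acta1 and Actc1 fall in one set and Actg1 in the other. Actb is not in the promoter table.

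Among the libraries, depth ran from 8052369 to 18159144 estimated counts. Libraries stood apart in mitochondrial counts, with 8.9% in 4 Hz replicate 3, 4.34% in 4 Hz replicate 6, 4.87% in 1 Hz replicate 6, 3.97% in 1 Hz replicate 4, and at most 2.72% elsewhere. All 16 skeletal myotube markers were detected, with a summed TPM of 15200 to 19100 in the controls. Of the smooth muscle list, 7 of 9 were at 1 TPM or more, with a summed TPM of 1400 to 1530 in the controls. The sum was mostly Des (1280 TPM), the desmin also made by skeletal muscle. Smtn was at 97.1 TPM, Actg2, an actin gene outside the members, at 55.4 TPM, and Synpo2 at 25.2 TPM. Myh11 was at 0.0434 TPM and Itga8 at 0.109 TPM. Of the cardiac list, 5 of 8 were at 1 TPM or more, with a summed TPM of 1360 to 1800 that was mostly Myl4 (1550 TPM), a myosin light chain also made by embryonic skeletal muscle. Myl7 and Nppa were at 0 and Ryr2 at 0.00632 TPM in the controls, whereas Myh6 was at 48.6 TPM. Of the fibroblast markers, 6 of 9 were at 1 TPM or more, with a summed TPM of 493 to 789 in the controls. Col3a1 was at 293 TPM, Dcn at 142 TPM, and Col1a2 at 118 TPM, whereas Lum was at 0.762 TPM, Fap at 0.134 TPM, and Thy1 at 0.0152 TPM.

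In unstimulated tissue, Acta1 was by far the most abundant member. Its mean was 7320 ± 704 TPM (SD, n = 6), with a lowest, median, and highest library of 6597, 7134, and 8515. Tpm1 and Tpm2 came next, at 2610 ± 270 TPM and 2170 ± 151 TPM (SD, n = 6), and their ranges, 2314 to 3086 and 1968 to 2370, overlapped slightly. The cytoplasmic actins followed and did not differ beyond their spread. Actg1 averaged 1480 ± 249 TPM (range 1138 to 1743) and Actb 1470 ± 252 TPM (1108 to 1693; SD, n = 6). Tpm3 was next at 622 ± 69 TPM (538.2 to 745.3). Acta2 at 499 ± 80.5 TPM (370.6 to 620.1), Actc1 at 473 ± 57.3 TPM (403.2 to 575.7), and Tpm4 at 381 ± 37.6 TPM (336.9 to 430.6; SD, n = 6 for each) closed the order, and each neighbour among them overlapped the next. Tpm3 and Acta2 overlapped as well, whereas Actb and Actg1 stood above every library of Tpm3, and Acta1 stood above all other members in every control.

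Under stimulation Acta1, Tpm1, and Tpm2 kept the first 3 places in mean TPM, and the lower places changed. Acta2 stood last at 4 Hz, with 294 ± 73.4 TPM, below Tpm4 with 318 ± 42.1 TPM, and their ranges of 188.8 to 389.3 and 270.7 to 359.4 overlapped. At 10 Hz it stood above Tpm3, with 579 ± 66.3 TPM against 526 ± 31.7 TPM (SD, n = 6 for each), again with overlapping ranges, but above every library of Tpm4, which reached 466.5 TPM at most. Actb and Actg1 were at 913 ± 261 and 948 ± 231 TPM at 4 Hz and at 1630 ± 338 and 1620 ± 264 TPM at 10 Hz, and did not differ from each other beyond their spread in either. At 1 Hz, Actc1 (430 ± 75.8 TPM), Acta2 (410 ± 124 TPM), and Tpm4 (376 ± 82.7 TPM; SD, n = 6 for each) overlapped throughout.

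**Figure D1:**
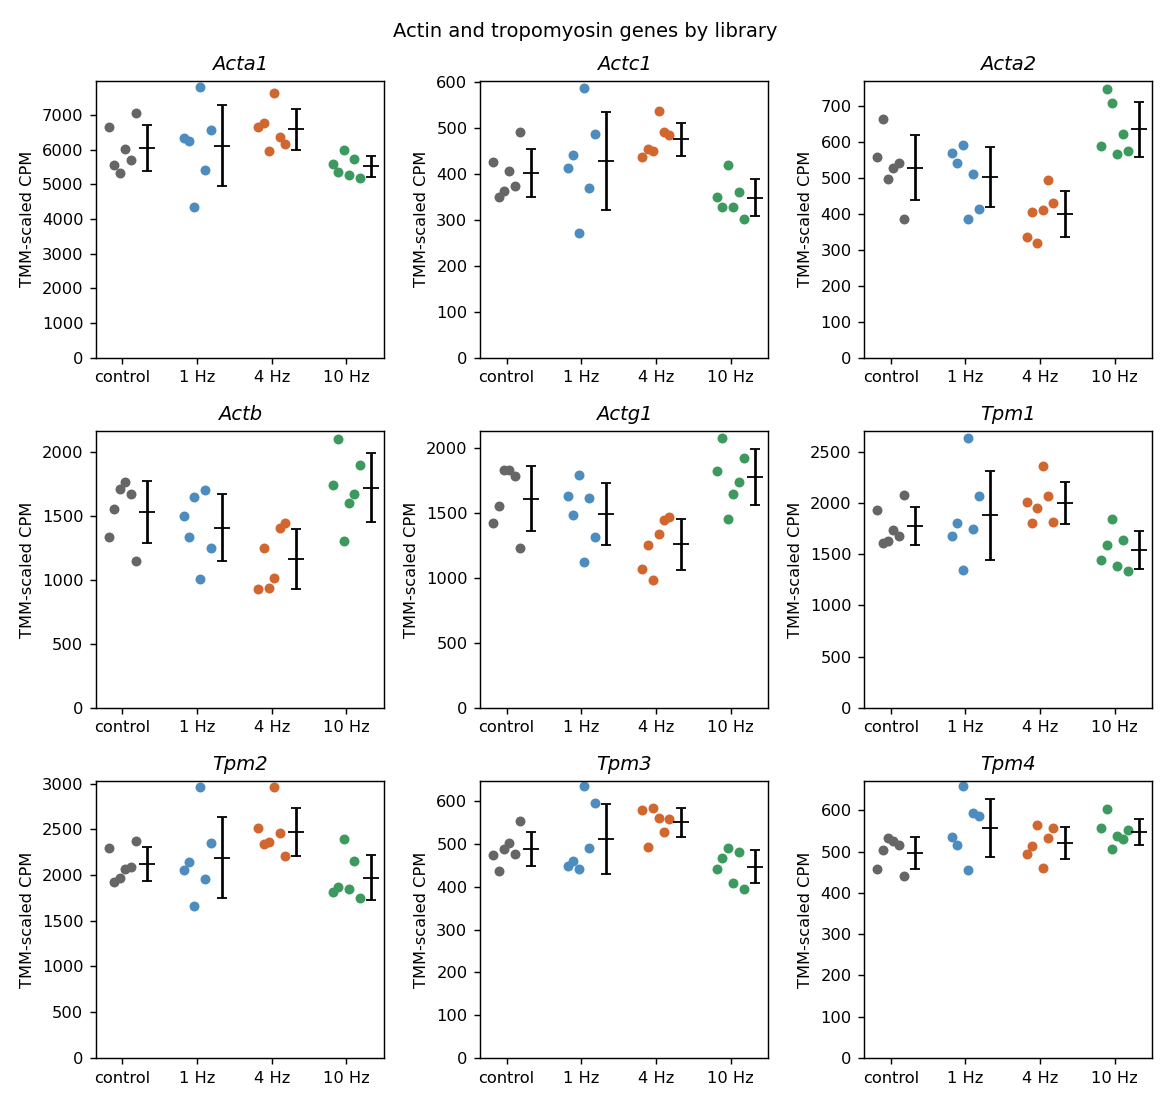
TMM-scaled CPM, counts relative to library size, of each member in every library, by condition, with each point 1 library, and the bar beside them the mean ± SD of 6 libraries; every axis starts at 0. Acta2, Actb, and Actg1 are lowest at 4 Hz and highest at 10 Hz, with Acta2 between 317.5 and 494.7 CPM at 4 Hz and between 566.6 and 747 CPM at 10 Hz.

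At 1 Hz, no member passed. In the edgeR quasi-likelihood test, with a Benjamini-Hochberg adjusted p over all 13315 genes, 0 of 9 members passed an adjusted p of 0.05, while 37.3% of all tested genes did (19.2% higher and 18.1% lower). Tpm4 was the 1 member that had an unadjusted p under 0.05, and DESeq2 and limma also called 0 members. For Acta1 the interval of the log2(fold change) at 95% confidence ran from −0.19 to 0.23, and for Actb from −0.41 to 0.17, so a change of the size seen at 4 Hz in Actb is not outside it. The coefficient of variation (SD as percent of the mean) of CPM ran from 12.8% to 24.8% over the 9 members at 1 Hz, with a median of 18.7%. It ran from 7.68% to 17.1% without stimulation (median 11.1%), from 6.23% to 20.1% under 4 Hz (10.3%), and from 5.6% to 15.8% under 10 Hz (11.9%). It was largest at 1 Hz for 7 of 9 members, the exceptions being Acta2 (17.1% without stimulation and 16.8% under 1 Hz) and Actb (20.1% under 4 Hz and 18.7% under 1 Hz), and the spreads were not tested against each other. In 1 Hz replicate 4 Acta1 was at 7806 CPM and Actb at 1010 CPM, the highest and the lowest of the 6, whereas replicate 3 had the lowest Acta1, 4338 CPM, and an Actb of 1652 CPM. Replicates 4 and 6 are among the libraries with high mitochondrial counts, and without the 4 such libraries Tpm4 passed at 1 Hz, where its log2(fold change) reached 0.227 (adjusted p = 0.023 in edgeR), the only member to do so, beside 30.8% of all genes in that fit, and it also passed without 1 Hz replicate 4 alone (0.197, adjusted p = 0.043).

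At 4 Hz, the non-sarcomeric actins were downregulated and no other member passed. Acta2, Actb, and Actg1 were lower, so 3 of 9 members were lower and 0 higher, beside 23.9% of all genes lower and 27.5% higher. Acta2 fell from a lowest, median, and highest library of 384.7, 533.6, and 662.8 CPM among controls to 317.5, 407.7, and 494.7 CPM. The conditions overlapped, and 2 of 6 libraries at 4 Hz lay below all controls. Its log2(fold change) was −0.41 (SE 0.12, adjusted p = 0.0076 in edgeR). Actb ran over 1149, 1617, and 1771 CPM without stimulation and 933.9, 1134, and 1450 CPM under 4 Hz, with 3 of 6 libraries below all controls, for a log2(fold change) of −0.39 (SE 0.14, adjusted p = 0.02 in edgeR), and this call was lost without 4 Hz replicate 1 (−0.34, adjusted p = 0.055). Actg1 ran over 1230, 1667, and 1830 CPM without stimulation and 984.2, 1297, and 1464 CPM under 4 Hz, with 2 of 6 below all controls, for a log2(fold change) of −0.35 (SE 0.12, adjusted p = 0.016 in edgeR). With an additional limit of 0.5 on the absolute log2(fold change), 0 of these 3 members passed, beside 25.1% of all genes.

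The remaining members at 4 Hz had positive log2(fold change) values that did not pass, from 0.07 for Tpm4 (adjusted p = 0.47) to 0.24 for Actc1 (adjusted p = 0.099), with Acta1 at 0.12 (adjusted p = 0.31) in edgeR. Without control replicate 6, the control with the largest share of Acta1 and Actc1, Actc1 passed at 0.31 (adjusted p = 0.043). Without the 4 libraries with high mitochondrial counts, 4 members passed at 4 Hz, the same 3 actins and Tpm2, which reached 0.255 (adjusted p = 0.026), beside 52.6% of all genes in that fit. The median over the 9 members was 0.122, against 0.061 over all genes tested. The actins had a median of −0.352 and the tropomyosins of 0.171. On TPM, which scales each library to a fixed total, all 9 members were lower at 4 Hz, and the median of all genes was −0.21 on the log2(TPM + 1) scale. Relative to that shift, Acta1 at −0.201 and Tpm1 at −0.142 were at or above the median, and the 3 actins that passed were the same in that fit. Of the markers of proliferating cells, 4 of 8 were lower and 1 of 8 higher at 4 Hz. Their summed TPM was 23.9 to 36 against 31.3 to 47.7 in the controls, with overlap. Cdk1, the most abundant, had a higher mean at 4 Hz (19.2 against 16.5 TPM), and the others a lower one. Some were near the floor, such as Mki67 at 0.413 TPM in the controls. Of the markers of unfused myoblasts or reserve cells, 4 of 6 tested were higher and 1 lower, with a summed TPM of 277 to 359 against 310 to 344. The share of ribosomal protein genes in the TPM was 15.6% to 20.4% under 4 Hz and 13.3% to 15.2% without stimulation, without overlap. The part of these values in the result was not tested. Fewer cells of a type and less RNA per cell cannot be told apart in these tissue libraries.

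At 10 Hz against control, 0 of 9 members passed in edgeR, beside 0.0376% of all genes, so the comparison called almost nothing in any gene. DESeq2 and limma also called 0 members, and 1 member, Acta2, had an unadjusted p under 0.05. Acta2 ran over 566.6, 604, and 747 CPM at 10 Hz against 384.7, 533.6, and 662.8 CPM in the controls, with 2 of 6 libraries above all controls and a log2(fold change) of 0.26 (SE 0.12, adjusted p = 0.58). The intervals of the log2(fold change) at 95% confidence were −0.12 to 0.46 for Actb and −0.34 to 0.08 for Acta1.

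More members passed between 10 and 4 Hz than in any other of the 6 comparisons, 8 of 9. Acta2, Actb, and Actg1 were higher at 10 Hz and Acta1, Actc1, Tpm1, Tpm2, and Tpm3 were lower, that is 3 higher and 5 lower, while 21.9% of all genes were higher and 24.4% lower. Acta2 was between 317.5 and 494.7 CPM at 4 Hz and between 566.6 and 747 CPM at 10 Hz, so the conditions did not overlap, and its log2(fold change) was 0.67 (SE 0.12, adjusted p = 0.00012 in edgeR). Actb had a median of 1134 CPM at 4 Hz and 1709 CPM at 10 Hz, with 5 of 6 libraries at 10 Hz above all at 4 Hz, and a log2(fold change) of 0.56 (SE 0.14, adjusted p = 0.0021). Actg1 had medians of 1297 and 1777 CPM, with 5 of 6 above all at 4 Hz, and 0.50 (SE 0.12, adjusted p = 0.0017).

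Among the 5 lower members, Actc1 was between 435.9 and 535.3 CPM at 4 Hz and between 302.3 and 419.8 CPM at 10 Hz, without overlap, for a log2(fold change) of −0.45 (SE 0.12, adjusted p = 0.0045 in edgeR). Tpm3 was between 494.2 and 584.2 CPM at 4 Hz and between 395.9 and 490.8 CPM at 10 Hz, also without overlap, at −0.30 (SE 0.086, adjusted p = 0.0061). Acta1 had medians of 6503 and 5463 CPM and a log2(fold change) of −0.25 (SE 0.1, adjusted p = 0.039), a call lost when any 1 of 9 of the 12 libraries was left out (4 Hz replicates 1, 2, 4, and 5 and 10 Hz replicates 1, 2, 4, 5, and 6; adjusted p from 0.057 to 0.13). The Acta1 call was also lost with DESeq2 size factors in edgeR (−0.233, adjusted p = 0.052) and with no filter on low counts (−0.221, adjusted p = 0.097). Tpm1 was at −0.38 (SE 0.12, adjusted p = 0.0094) and Tpm2 at −0.33 (SE 0.11, adjusted p = 0.014; 0.053 without 4 Hz replicate 4), and Tpm4 did not pass at 0.07 (adjusted p = 0.46) in edgeR. In all, 1 member lay above in every library (Acta2) and 2 below (Actc1 and Tpm3), beside 10.8% and 8.1% of all genes.

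The 5 calls lower at 10 Hz depended on the scale. On log2(TPM + 1) with limma, 4 members were higher at 10 Hz (Acta2, Actb, Actg1, and Tpm4) and 0 were lower, where the median of all genes was 0.2. Acta1 was then at 0.0573 (adjusted p = 0.7) and Actc1 at −0.138 (adjusted p = 0.37). The same split with TMM counts was 3 higher and 5 lower, and the median of all genes was −0.053. With an additional limit of 0.5 on the log2(fold change), 2 members passed, Acta2 and Actb, beside 21.2% of all genes. With TMM counts, 12 of 16 myotube markers were lower and 0 higher at 10 Hz against 4 Hz, as the 5 members were lower. The summed TPM of the markers was 13400 to 16300 against 16000 to 18900, whereas on TPM 0 members passed as lower. Markers of proliferating cells were higher in 4 of 8 and lower in 0, with a summed TPM of 38.6 to 53.9 against 23.9 to 36. Of all genes, 21.9% were higher and 24.4% lower. The share of ribosomal protein genes in the TPM was 13.6% to 15.7% at 10 Hz against 15.6% to 20.4% at 4 Hz. Of 7 fibroblast markers tested, 1 was higher and 1 lower, with a sum of 609 to 756 against 435 to 692 TPM. Their part in the result was not tested.

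Between 10 and 1 Hz, Acta2 alone passed, with a log2(fold change) of 0.34 (SE 0.12, adjusted p = 0.041 in edgeR), beside 14.8% of all genes higher. It was at a median of 604 CPM at 10 Hz and 525.4 CPM at 1 Hz, and the ranges of 566.6 to 747 and 385.9 to 591.4 CPM overlapped. Without the 4 libraries with high mitochondrial counts its log2(fold change) was 0.185 and it no longer passed (adjusted p = 0.28), nor did it when any 1 of 1 Hz replicates 4 and 6 or 10 Hz replicates 1, 2, and 3 was left out (adjusted p from 0.05 to 0.1). The count between 10 and 1 Hz itself rose to 4 without 10 Hz replicate 3, to 3 without 1 Hz replicate 1 or 3, and to 2 without 1 Hz replicate 5. Between 4 and 1 Hz, 0 members passed in edgeR, DESeq2, or limma, beside 0% of all genes, although 2 (Acta2 and Actg1) had an unadjusted p under 0.05. Without the 4 libraries with high mitochondrial counts, 4 members passed there, Tpm2 higher and Acta2, Actb, and Actg1 lower, beside 10.5% of all genes in that fit.

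**Figure D2:**
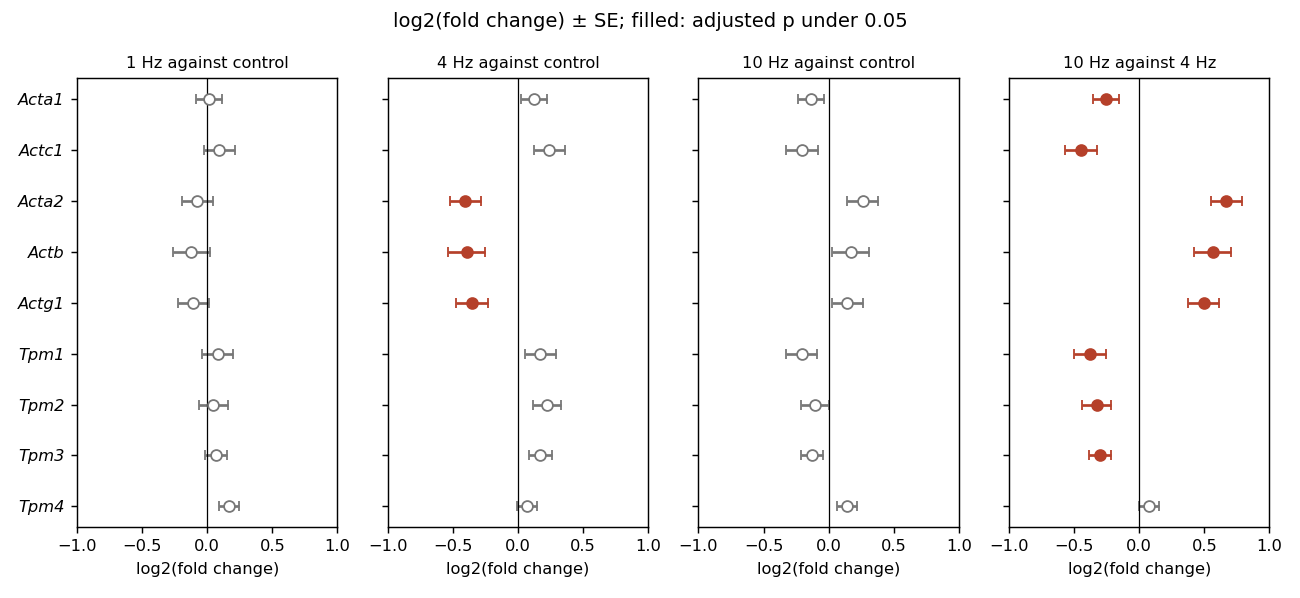
log2(fold change) of each member with its standard error (SE) in 4 comparisons of the edgeR fit; filled points passed an adjusted p of 0.05. At 4 Hz the 3 non-sarcomeric actins are filled to the left of 0, at 1 and 10 Hz against control no point is filled, and between 10 and 4 Hz all members but Tpm4 are filled.

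The shares of the actins were taken within each library and do not depend on library scaling. Acta1 plus Actc1 made up 69.3% ± 5.11 of the summed TPM of the 5 actins in the controls (range 64.9% to 77.6%), 70.9% ± 7.42 at 1 Hz (60% to 81.5%), 76.3% ± 3.38 at 4 Hz (71.7% to 79.7%), and 64.9% ± 3.85 at 10 Hz (60.2% to 71.1%; SD, n = 6 for each). The ranges at 4 and 10 Hz did not overlap, whereas each frequency overlapped the controls. Control replicate 6 reached 77.6%, within the range of the 4 Hz libraries. Actb and Actg1 held nearly equal parts in each condition, and their ratio averaged 1.01 in unstimulated tissue, 1.05 under both 1 Hz and 4 Hz, and 1 under 10 Hz stimulation. The tropomyosins differed little, with Tpm1 plus Tpm2 at 82.6% ± 1.15 of the 4 without stimulation, 81.8% ± 2.3 under 1 Hz, 82.9% ± 1.76 under 4 Hz, and 81.5% ± 1.21 under 10 Hz (SD, n = 6).

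**Figure D3:**
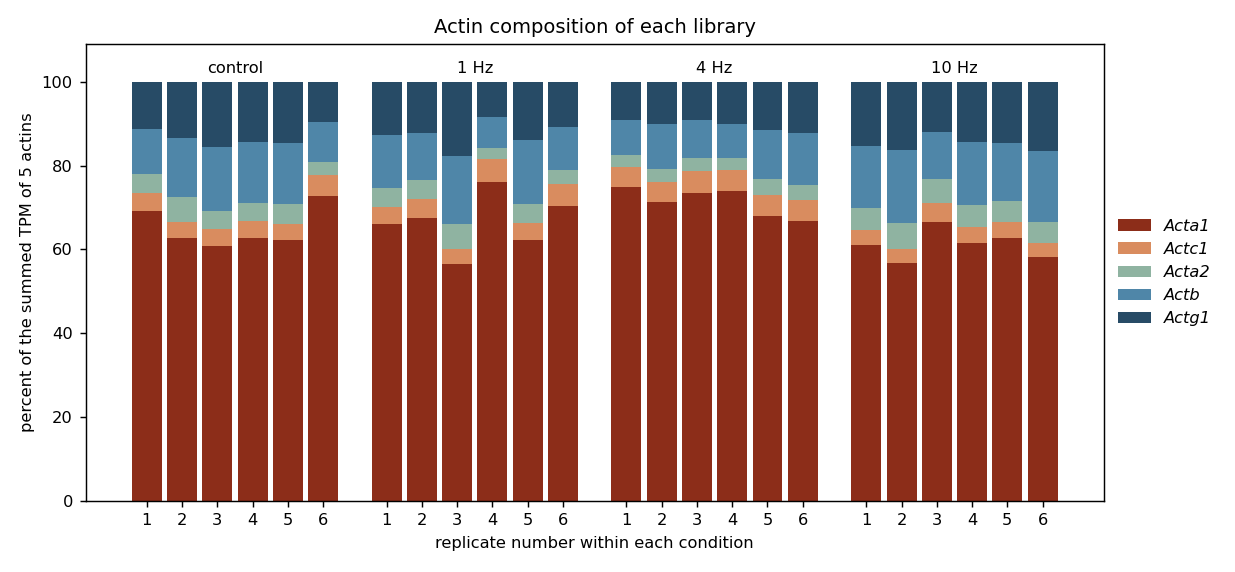
Share of each actin in the summed TPM of the 5 actins, 1 bar per library, grouped by condition. The lower 2 colours, Acta1 and Actc1, fill 71.7% to 79.7% of the bars at 4 Hz and 60.2% to 71.1% at 10 Hz, while the controls run from 64.9% to 77.6%.

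Ratios within pairs of related genes were compared with the controls in 12 exact permutation tests over libraries (two-sided, 6 against 6, smallest possible p 0.0022). None passed after Benjamini-Hochberg adjustment, and 3 had an unadjusted p under 0.05. At 10 Hz, the ratio of Tpm4 to Tpm3 was 0.792 ± 0.11 against 0.619 ± 0.093 (SD, n = 6; exact permutation p = 0.022, adjusted p = 0.16). The ratio of Tpm2 to Tpm1 was 0.897 ± 0.046 against 0.835 ± 0.037 at 10 Hz (exact permutation p = 0.035, adjusted p = 0.16). At 4 Hz, Actc1 to Acta1 was 0.07 ± 0.0051 against 0.0644 ± 0.0025 (exact permutation p = 0.041, adjusted p = 0.16).

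The estimated count divided by TPM follows the mean length of the transcripts assigned to a gene, so it can reveal a shift between long and short forms without naming them. No member passed in limma at 1 Hz (0.0429% of all genes passed), 4 Hz (0.751%), or 10 Hz (0%). Tpm3 varied most. Its mean length was 6.27% greater at 10 Hz than in the controls (limma across all genes, adjusted p = 1), with libraries between 1.18% and 9.82% relative to the control mean, and controls between −5.77% and 2.72%. At 4 Hz the mean of Tpm3 was at −4.2% relative to the controls (adjusted p = 0.43), with libraries from −7.02% to −1.18%, and the conditions overlapped. With lengths centred on the median of each library alone, Actc1 (1.63% longer, adjusted p = 0.025) and Tpm4 (1.68% longer, adjusted p = 0.021) passed at 4 Hz in limma, beside 24% of all genes. In the main fit, not centred on the median alone, Acta1 and Actc1 stayed within 1% of the control mean in every library.

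The members varied together across libraries in 2 sets, which were named after their values were seen. Over the 24 libraries, Acta1, Actc1, Tpm1, Tpm2, and Tpm3 were positively related in 10 of 10 pairs (Pearson's r 0.706 to 0.957), and Acta2, Actb, Actg1, and Tpm4 in 6 of 6 (0.305 to 0.965). All 20 pairs between the sets were negative, from −0.835 to −0.329. Deviations from the condition means, which remove the differences between conditions, gave the same signs in every pair, with r of 0.932 for Acta1 with Actc1, 0.967 for Tpm1 with Tpm2, 0.937 for Actb with Actg1, and −0.881 for Acta1 with Tpm4. These are descriptions over 24 libraries that share a condition in groups of 6, and counts in a library are relative to each other. The deviations of Actb were also related to the share of ribosomal protein genes in the library (r −0.633), as were those of Actg1 (−0.554) and, with opposite sign, those of Tpm3 (0.521), and their part was not tested.

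**Figure D4:**
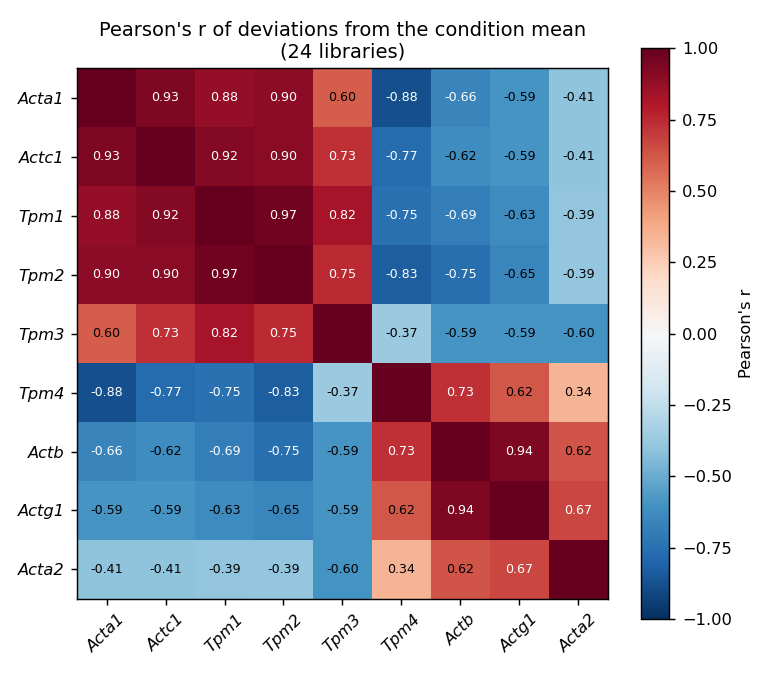
Pearson's r between the log2 CPM of members, as deviations from the mean of the condition over 24 libraries. The upper left 5 genes and the lower right 4 genes form positive blocks, and all 20 pairs between them are negative, down to −0.881 for Acta1 with Tpm4.

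The genes most like each member over the 24 libraries were sought among 9482 genes with enough signal, leaving out the members themselves, of which Actb and Actg1 were the most alike (r 0.965). Tpm1 was closest to Tnnt3, fast troponin T (r 0.963), Tpm2 to Ankrd2, an ankyrin repeat protein of muscle (0.962), Tpm3 to Tnnc2, fast troponin C (0.939), and Tpm4 to Fzd6, a Wnt receptor (0.825). Acta1 was closest to Fgfrl1 (0.941) and next to Ckm, muscle creatine kinase (0.926), and Actc1 to Ndrg2 (0.943). Actb was closest to Coro1c, an actin-binding coronin (0.932), Actg1 to Arf3 (0.913), and Acta2 to Cnn3, an actin-binding calponin (0.915).

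Other genes of the actin system were described with lists of their own, tested in the same fit. At 4 Hz, the medians of the log2(fold change) were 0.088 for thin filament length and capping, 0.13 for monomer turnover, −0.13 for nucleation, −0.16 for bundling, 0.054 for folding, and 0.053 for serum response factor and its targets, against 0.061 over all genes, of which 27.5% were higher and 23.9% lower. Of 15 tested genes for thin filament length and capping, 1 was higher and 2 lower at 4 Hz. Lmod2, leiomodin, which lengthens thin filaments, averaged 105 ± 12.7 CPM without stimulation and 160 ± 5.26 CPM under 4 Hz (SD, n = 6), with no overlap and a log2(fold change) of 0.61 (adjusted p = 0.00022 in edgeR). It was also higher at 1 Hz, at 0.49 (adjusted p = 0.0029), but did not pass at 10 Hz (−0.11, adjusted p = 0.92). Capza1, a capping protein subunit, and Tmod3, tropomodulin of non-muscle filaments, were both at −0.31 at 4 Hz.

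Of 19 genes for monomer binding and turnover, 5 were higher and 3 lower at 4 Hz. Tmsb10, a thymosin that binds monomers, averaged 731 ± 55.4 CPM without stimulation and 951 ± 135 CPM under 4 Hz (SD, n = 6), at 0.38 (adjusted p = 0.0028 in edgeR), whereas Pfn1, the main profilin, which delivers monomers to filaments, was at −0.31 (adjusted p = 0.00063) and Twf1, a twinfilin, at −0.60 (adjusted p = 5.8e-05). Of 23 genes for nucleation, 3 were higher and 9 lower. Wasf1, of the WAVE complex, averaged 9.11 ± 0.872 CPM without stimulation and 4.46 ± 0.549 CPM under 4 Hz (SD, n = 6), at −1.02 (adjusted p = 1.3e-05), and Wasl, which activates Arp2/3, was at −0.44 (adjusted p = 2.9e-05).

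Of 22 genes for bundling and crosslinking, 1 was higher and 7 lower at 4 Hz, and Actn1, α-actinin of non-muscle cells, averaged 287 ± 38.6 CPM without stimulation and 165 ± 26.1 CPM under 4 Hz (SD, n = 6), at −0.80 (adjusted p = 0.00042 in edgeR). Actn4, its paralog, was at −0.58 (adjusted p = 3.5e-05), and Synpo was the 1 gene higher, at 0.64 (adjusted p = 3.9e-05). Between 10 and 4 Hz, this list had 10 of 22 higher and 2 lower, and nucleation had 10 of 23 higher and 4 lower, beside 21.9% and 24.4% of all genes. Of 15 genes for actin folding, 2 were higher and 3 lower at 4 Hz; Pfdn5, of prefoldin, was at 1.15 (adjusted p = 0.00047) and Cct3, of the CCT chaperonin that folds actin, at −0.31 (adjusted p = 0.00012).

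Of 18 genes of serum response factor, its cofactors, and their targets, 3 were higher and 2 lower at 4 Hz and 5 higher and 1 lower at 1 Hz. At 4 Hz that is 16.7% higher and 11.1% lower, beside 27.5% and 23.9% of all genes. At 1 Hz it is 27.8% higher and 5.56% lower, beside 19.2% and 18.1% of all genes. Fhl2 rose at both 4 and 1 Hz, with 35.3 ± 4.74 CPM without stimulation and 84.2 ± 5.08 CPM under 4 Hz (SD, n = 6), at 1.25 (adjusted p = 9.1e-11 in edgeR), and at 10 Hz at 0.57 (adjusted p = 0.0034), the 1 gene of the list that passed there. Ccn2 was at 1.02 at 4 Hz (adjusted p = 3e-05). Mrtfa, the cofactor that senses free actin monomers, averaged 55.7 ± 5.71 CPM without stimulation and 31.9 ± 4.99 CPM under 4 Hz (SD, n = 6), without overlap, at −0.80 (adjusted p = 0.00016), and at −0.62 at 1 Hz (adjusted p = 0.0029). Flna, filamin A, was at −0.48 at 4 Hz (adjusted p = 0.02).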

How the data were processed

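RNA of C2C12 muscle tissues was measured in 24 libraries, 6 for each of 4 conditions. The estimated counts deposited by the authors come from nf-core/rnaseq with salmon and the Ensembl annotation of GRCm39, per gene and not normalized, and 6.15% of them are not whole. The TPM values deposited by the authors are divided by transcript length and sum to 1000000 in each library (1e+06). Groups and replicate numbers were taken from the labels of the samples.

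The counts were rounded and fitted in edgeR 4.0.16 (R 4.3.3), with genes kept by filterByExpr (minimum count 10, minimum total 15), TMM scaling, and robust quasi-likelihood F tests in 1 fit of all 24 libraries. A member passed at a Benjamini-Hochberg adjusted p under 0.05 over the 13315 genes tested. Standard errors follow from the F statistic and intervals from 20 residual degrees of freedom. TPM was used for levels, shares, and ratios, and limma 3.58.1 for log2(TPM + 1) (genes with at least 1 TPM in 6 libraries) and for log2 of count over TPM, which was centred on a lowess of each library. DESeq2 1.42.0 was an alternative. The method was tested on simulated data. Depth was 8052369 to 18159144 estimated counts, and the biological coefficient of variation was 14.8%. Sequences are from GENCODE M39 and RefSeq, and the names matched for 8 of the 9 members in the promoter table.

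The members, the gene lists, and the named genes were chosen with earlier results of these data known. All members are named, with up to 2 genes per direction and list by smallest p at 4 Hz, and up to 2 genes most alike in log2 CPM (mean of at least 3) for each member. Replicate numbers did not pair the libraries: same-numbered libraries of different conditions correlated between −0.332 and 0.242 (median −0.0203), and 0 libraries were closest to their own number. Replicates are separate tissues of 1 line, so the tests set differences between conditions against the spread between tissues. They do not cover the spread between repeats of the experiment. No pair of libraries within a condition was a duplicate, and pairs across conditions were not checked for this. Alternatives were other scalings, filters, and tests, and each library left out. The 30-min experiment was not analysed here.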

Additional observations from a re-analysis of the deposited data

Results flagged for a closer look

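Of 128 groups of 6 libraries in which a member's level, share, ratio, or length was examined, 3 held a library far from the others by Dixon's criterion, and chance alone flags about 1 in 20 groups. Tpm2 in 10 Hz replicate 3 was at 2210 TPM, above the 1860 to 1990 TPM of the other 10 Hz libraries. The mean transcript length of Actc1 in 10 Hz replicate 2 was −0.014 on a log2 scale relative to the mean of all libraries, below the −0.0037 to 0.00137 of the others. The mean transcript length of Acta2 in 1 Hz replicate 4 was 0.116, above the −0.0381 to 0.0171 of the others. That library had the lowest Acta2 at 1 Hz (232.8 TPM), but TPM is also the divisor of the length, so the 2 values are not independent. Its share of mitochondrial counts was one of the highest (3.97%).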

How the results depend on the processing

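The counts of members passing were 0, 3, and 0 at 1, 4, and 10 Hz against control, 1 and 8 for 10 Hz against 1 and 4 Hz, and 0 for 4 against 1 Hz, and a fit with the replicate number as a block gave the same counts (0, 3, 0, 1, 8, and 0), in place of a pairing that the numbers do not show. With upper-quartile factors 1 member passed at 1 Hz and 0 for 10 against 1 Hz. An additional limit on the fold left 0 at 4 Hz, 0 for 10 against 1 Hz, and 2 for 10 against 4 Hz. Fitting only the 2 groups compared gave 5 at 4 Hz, with Actc1 and Tpm2 added. Limma on log2(TPM + 1) or log2(TPM + 0.1) gave 4 for 10 against 4 Hz. Without the 4 libraries with over 3% mitochondrial counts, an alternative chosen after seeing the data, 1 passed at 1 Hz, 4 at 4 Hz with Tpm2 added (0.255, adjusted p = 0.026), 0 for 10 against 1 Hz, and 4 for 4 against 1 Hz. Counting Actg1, Tpm3, and Tpm4 with their copies, also chosen after seeing the data, changed no count, but Gm70496 was not among the copies added to Actg1. Leaving out 1 library gave 0 to 1 members at 1 Hz and 0 to 4 for 10 against 1 Hz. For 10 against 4 Hz, Acta1 no longer passed with DESeq2 size factors in edgeR (−0.233) or with no filter (−0.221). The cause of these differences was not tested.

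On log2(TPM + 1), the log2(fold change) at 1 Hz was −0.211 for Acta1, −0.151 for Actc1, −0.152 for Tpm1, −0.205 for Tpm2, −0.164 for Tpm3, and −0.0416 for Tpm4, and with a pseudocount of 0.1 Tpm3 was at −0.165 and Tpm4 at −0.0418. At 4 Hz it was −0.201 for Acta1, −0.0821 for Actc1, −0.142 for Tpm1, −0.103 for Tpm2, −0.0904 for Tpm3, and −0.261 for Tpm4, and with 0.1 −0.0823 for Actc1, −0.0905 for Tpm3, and −0.262 for Tpm4. Between 10 and 4 Hz Acta1 was at 0.0573 with both. Without the 4 libraries, values at 1 Hz were −0.105 (Acta1), −0.0917 (Actc1), 0.0763 (Acta2), 0.0283 (Actb), 0.0301 (Actg1), −0.101 (Tpm1), −0.106 (Tpm2), and −0.0752 (Tpm3), and Tpm4 at 4 Hz was at −0.00793. With no filter Acta1 at 1 Hz was at −0.0165. Leaving out 1 library, values at 1 Hz ran from −0.0879 to 0.0825 for Acta1, −0.0405 to 0.178 for Actc1, −0.0622 to 0.145 for Tpm1, −0.0821 to 0.0985 for Tpm2, and −0.0264 to 0.106 for Tpm3. All of these turns concern values that did not pass, except Acta1 between 10 and 4 Hz.

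The log2 ratio of Actg1 to Actb ran from −0.00471 to 0.0773 at 4 Hz and −0.039 to 0.00528 at 10 Hz with 1 library left out, and the number of ratios passing from 0 to 2, the 2 being Actc1 to Acta1 and Tpm4 to Tpm3 without 10 Hz replicate 3. The log2 mean length of Tpm3 at 1 Hz ran from −0.0154 to 0.0359. With lengths centred on the median alone, 2 members passed at 4 Hz, Actc1 and Tpm4. Taken from estimated counts instead of TPM, also chosen after seeing the data, Acta1 plus Actc1 made up 63.7% of the actins in the controls, 71.5% at 4 Hz, and 58.7% at 10 Hz. A biological coefficient of variation of 14.8% with 6 libraries limits which small changes pass.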
